A study of Mus musculus with 6 samples.

Results

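Gene deserts are long stretches of chromosome without a protein-coding gene, and the peaks described here are the accessible sites inside them in differentiating mouse epiblast stem cells. A peak was taken as a desert peak where it lay on an autosome and its best summit was at least 250 kb from any protein-coding gene of mm10. By this rule 3083 of 204650 autosomal peaks (1.51%) in the FM list and 2520 of 138130 (1.82%) in the KO list were desert peaks. The rule used position only, and neither the strength of a peak nor its presence in the other list.

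The assay was ATAC-seq, in which the Tn5 transposase cuts and tags open chromatin so that accessible sites give peaks of sequenced fragments. One group is Mixl1 knockout cells. The other is a Mixl1-inducible line that received doxycycline at 1 µg/mL for the 24 h before collection. Mixl1 encodes a paired-type homeodomain protein active in the primitive streak. Both groups are mouse epiblast stem cells, primed pluripotent cells kept on irradiated embryonic fibroblasts with bFGF and Activin A, that were aggregated in Aggrewells and collected as embryoid bodies after 2 d of serum differentiation. Each group has 3 libraries of 50000 cells and 11 PCR cycles, and the labels do not say whether these came from separate cultures. The sources used here do not give the altered part of the Mixl1 gene, nor do they record doxycycline for the knockout cells. The state of Mixl1, the drug and the cell line change together between the groups and cannot be told apart.

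One peak list per group was used. There is no replicate error, and no difference between the groups was tested. One list is named KO. The other is named FM, which no label explains, and was taken as the induced list because the series has only this group besides the knockout. Intervals are exact binomial (Clopper-Pearson) intervals at 95% that cover the counting of peaks only and treat neighbouring peaks as independent. A site open in fewer cells and a site opened less in each cell cannot be told apart in bulk libraries. Depth in reads is unknown, and the local background recovered for each peak had a median of 36.0 fragments in FM and 35.2 in KO. Within 1 kb of a gene end, peaks lay at 6 of 7 epiblast marker genes in FM (none at Nanog) and at 7 of 7 in KO. They lay at 5 of 5 primitive streak and 3 of 3 definitive endoderm genes in both lists. Fibroblast markers, included because of the feeder cells, had peaks at 4 of 5 genes in both lists and none at Postn. The largest fold at these fibroblast genes was 2.30 to 5.08 in FM and 2.71 to 4.02 in KO, and the part of feeder cells in the desert peaks was not tested. Of 4 naive pluripotency genes, 3 had a peak in each list, with none at Zfp42. The share of all genes with such a peak is not given here, so these counts do not set a cell type apart.

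Deserts hold no protein-coding exons, yet many of them flank genes of transcription factors and signalling ligands whose distant enhancers lie inside the desert. Other deserts flank genes of neuronal adhesion and synapse formation. An accessible site in a desert is therefore often read as a candidate distal enhancer, a promoter of a non-coding RNA, or a site bound by an architectural protein. Accessibility alone does not separate these.

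Some desert peaks lay on annotated starts of long non-coding RNAs (lncRNAs). Of 31396 autosomal RefSeq promoter windows, 73 windows of 61 genes were overlapped by desert peaks. Each window had 300 bases, 250 before and 50 after the start (GRCm38.p6). The peaks were 54 in FM and 42 in KO, and all 61 genes were lncRNAs. Starts of protein-coding genes could not be overlapped, because the distance rule leaves them out. The windows below are shown because, of the windows eligible for printing, they rank first by −log10 q in their class with a summit in the window, where shared windows had to hold a summit of both lists and were ranked by the lower of the 2 values, read 5′ to 3′ on the gene's strand. The first pair was shared by both lists. These are 4930471G24Rik (chr13:47667300-47667599, plus strand), between Rnf144b and Id4, and Mir100hg (chr9:41474643-41474942, plus strand), the host gene of a microRNA cluster that includes miR-100. Capitals mark the longest run of bases that both windows contain, of 13 bases, found by comparing these 2 windows.

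4930471G24Rik: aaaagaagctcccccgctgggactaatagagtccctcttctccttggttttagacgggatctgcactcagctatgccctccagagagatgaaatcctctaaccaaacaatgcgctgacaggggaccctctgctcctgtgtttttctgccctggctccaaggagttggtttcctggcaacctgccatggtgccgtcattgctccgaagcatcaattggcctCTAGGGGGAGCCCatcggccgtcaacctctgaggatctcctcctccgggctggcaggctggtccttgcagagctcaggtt

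Mir100hg: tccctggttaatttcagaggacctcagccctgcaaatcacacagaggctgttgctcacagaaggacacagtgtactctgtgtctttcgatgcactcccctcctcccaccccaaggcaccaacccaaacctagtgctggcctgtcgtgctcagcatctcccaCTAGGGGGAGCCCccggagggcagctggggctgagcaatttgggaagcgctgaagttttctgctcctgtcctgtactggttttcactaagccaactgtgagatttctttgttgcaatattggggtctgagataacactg

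The FM peak at 4930471G24Rik had a fold of 2.84 and the KO peak 2.71, where fold is the authors' value for the summit relative to its local background. At Mir100hg the folds were 2.71 in FM and 3.45 in KO. The shared run CTAGGGGGAGCCC occurred on either strand in 3 of the 31396 windows, these 2 included. Its presence in these 2 follows from how it was chosen, and a function of the run was not tested. The next windows belong to peaks of 1 list. Gm1653 (chr3:149274487-149274786, plus strand) lies between the adhesion receptor genes Adgrl2 and Adgrl4 and carried an FM-only peak of fold 3.05. Gm41259 (chr15:6044655-6044954, minus strand) lies between Ptger4 and Dab2 and carried a KO-only peak of fold 4.59. Capitals in Gm41259 mark a match to the GATA motif AGATAAG at position 22.

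Gm1653: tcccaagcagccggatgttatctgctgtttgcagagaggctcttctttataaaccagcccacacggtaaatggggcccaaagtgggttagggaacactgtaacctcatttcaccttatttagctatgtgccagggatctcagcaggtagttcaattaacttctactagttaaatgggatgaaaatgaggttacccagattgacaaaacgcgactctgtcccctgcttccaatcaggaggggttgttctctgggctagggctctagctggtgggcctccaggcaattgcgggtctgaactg

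Gm41259: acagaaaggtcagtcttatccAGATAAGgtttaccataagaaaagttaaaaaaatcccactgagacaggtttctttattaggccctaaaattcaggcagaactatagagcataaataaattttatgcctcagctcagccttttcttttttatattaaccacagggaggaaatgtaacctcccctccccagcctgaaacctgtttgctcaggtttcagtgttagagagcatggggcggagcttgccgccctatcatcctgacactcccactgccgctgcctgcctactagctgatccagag

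A further window, chosen after its values were seen, is that of Gm38512 (chr3:35405901-35406200, minus strand) in the desert beside Sox2. An FM peak with fold 2.85 had its summit in the window. The KO peak that it overlapped, chr3:35404499-35405848 with fold 5.78, ended just outside it.

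Gm38512: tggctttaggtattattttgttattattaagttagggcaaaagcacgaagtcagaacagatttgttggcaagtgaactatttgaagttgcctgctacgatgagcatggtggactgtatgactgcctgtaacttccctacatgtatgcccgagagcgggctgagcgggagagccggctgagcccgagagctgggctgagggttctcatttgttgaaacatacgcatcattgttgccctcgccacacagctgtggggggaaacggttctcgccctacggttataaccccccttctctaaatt

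Across the 73 windows the AP-1 motif TGANTCA was found on either strand in 8 (11.0%), against 7.84% of all windows. The GATA motif was in 3 (4.11%, against 3.03%) and a palindromic paired homeodomain motif with 3 spacer bases in 2 (2.74%, against 0.503%). The same motif with 2 spacer bases was in 0 of 73 windows and in 0.398% of all. Paired homeodomain sites are the kind that Mixl1-class proteins bind as dimers. The T-box motif AGGTGTNA was in 0 of 73 windows and in 3.05% of all. These are matches of letters and not bound sites, and a count of 2 windows carries little precision. Some windows of the same gene overlap, so a site can be counted more than once. The windows overlapped by desert peaks had a median GC content of 51.3%, against 53% of all windows. These comparisons with all windows were not matched for gene type.

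Desert peaks were more often confined to 1 list than other peaks, above all in the KO list. Peaks with at least 1 bp in common with any peak of the other list are called shared, and the rest FM-only or KO-only. In FM 1285 desert peaks (41.7%, interval 39.9 to 43.4) were shared and 1798 (58.3%) FM-only, where 50.9% of all autosomal FM peaks were FM-only. In KO 1268 (50.3%, interval 48.3 to 52.3) were shared and 1252 (49.7%) KO-only, where 27.5% of all autosomal KO peaks were KO-only. Elsewhere on the autosomes 49.2% of FM peaks were shared, and 72.9% of KO peaks. The gap between desert and other peaks was therefore wider in KO than in FM. Of the peaks found in 1 list, 59.0% (interval 57.2 to 60.7) were FM-only in deserts and 73.6% elsewhere. On chromosomes other than 12, 15 and 18, which are rich in KO peaks, these shares were 67.9% and 76.2%. A peak without a counterpart can overlap signal that stayed under the threshold of the other list, so these counts are not counts of closed sites.

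Desert peaks were somewhat narrower than other peaks and had similar folds. The median width was 309 bp in FM and 319 bp in KO, against 345 bp and 352 bp elsewhere. Their median fold was 2.01 in FM and 2.08 in KO, against 1.96 and 2.01. Median −log10 q, the authors' significance after correction, was 5.10 in FM deserts and 5.57 in KO deserts, against 5.76 and 5.90. Among paired FM and KO peaks of shared desert regions, neither list was favoured in the median. The median log2 ratio of FM to KO fold over 1222 such pairs was 0.01 (10th to 90th percentile −0.47 to 0.37). The KO fold was higher in 602 (49.3%). KO-only peaks made up 41.0% of specific peaks in deserts and 26.4% elsewhere. This higher share was not accompanied by a shift of the median fold at shared desert sites. Pairs exist only where both lists have a peak, so they do not describe the KO-only peaks.

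The lower sharing of KO desert peaks was present in every bin of significance. Below −log10 q of 2, 33.7% of 208 KO desert peaks were shared, against 54.6% of other KO peaks. From 10 to 20 the shares were 60.1% of 373 and 84.7%, and from 20 to 50 they were 71.5% of 165 and 94.7%. In FM the same bins gave 18.4% of 245 against 22.2%, 76.8% of 379 against 79.4%, and 97.0% of 101 against 98.6%. Other KO peaks reweighted to the bins of the desert peaks were shared at 71.4%, and reweighted to bins and chromosomes together at 69.6%, against 50.3% of the desert peaks. The reweighted FM values were 44.9% and 45.5%, against 41.7%.

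**Figure D1:**
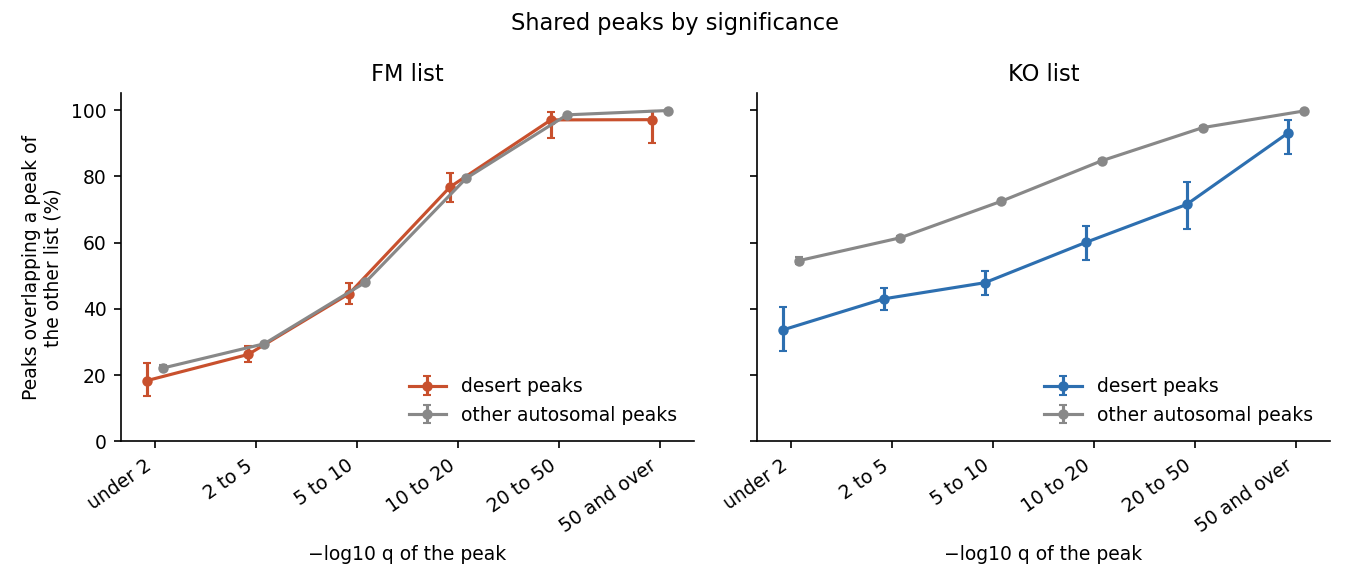
Share of peaks with a counterpart in the other list (y axis, %) by bin of −log10 q (x axis) in the FM list (left) and the KO list (right). Coloured points are desert peaks, grey points other autosomal peaks, and bars are exact binomial 95% intervals for counting. The desert and other points lie close together in FM, while in KO the desert points are lower in every bin, for example 71.5% against 94.7% from 20 to 50.

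Among strong desert peaks the balance lay on the KO side. With −log10 q of at least 10, 93 of 549 FM desert peaks (16.9%) and 204 of 652 KO desert peaks (31.3%) had no counterpart. At this level 12.5% of all autosomal FM peaks and 8.8% of all autosomal KO peaks had none. The FM-only share of these strong specific peaks was 31.3% (interval 26.1 to 36.9) in deserts and 64.3% elsewhere. It was 35.5% and 67.3% without chromosomes 12, 15 and 18. At 20 or more, 5 of 170 FM desert peaks (2.94%) and 55 of 279 KO desert peaks (19.7%) had no counterpart. Over all autosomes 0.936% of FM and 2.95% of KO peaks of this level had none. The FM-only share was 8.33% (interval 2.76 to 18.4) in deserts, against 23.8% elsewhere. Without peaks whose recovered background was above 5 times the list's median, 4 FM-only and 51 KO-only desert peaks remained. Strong desert peaks found in FM alone were thus few by number, but a larger part of strong FM peaks than over all autosomes.

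The split moved with depth into the desert. From inside genes out to 250 kb the KO-only share of specific peaks stayed between 24.4% and 30.1%. It was 36.6% at 250 to 500 kb, 58.7% at 500 kb to 1 Mb and 76.6% at 1 Mb and over, the last from 22 FM-only and 72 KO-only peaks. The shared percentage of KO peaks fell over the same bands, with 53.6% of 1978, 40.9% of 443 and 27.3% of 99. In FM it went the other way, with 40.3% of 2666, 49.9% of 367 and 56.0% of 50. KO peaks outnumbered FM peaks beyond 500 kb, by 1.21 times to 1 Mb and by 1.98 times from 1 Mb. Without chromosomes 12, 15 and 18 the order turned at 500 kb to 1 Mb, with 216 FM and 210 KO peaks (0.972 times), and the ratio was 1.52 from 1 Mb. The KO-only share without these 3 chromosomes was 29.0%, 49.4% and 65.9% in the desert bands. The rise in KO-only share was thus present without those chromosomes, at lower values, and that of FM sharing was smaller, from 35.3% to 40.7% and 39.1%. Around the limit itself the values were close. Just outside, at 225 to 250 kb, 44.2% of 712 FM peaks were shared, with 60.7% of 504 KO peaks, and just inside, at 250 to 275 kb, 40.1% of 659 and 59.2% of 446 were.

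**Figure D2:**
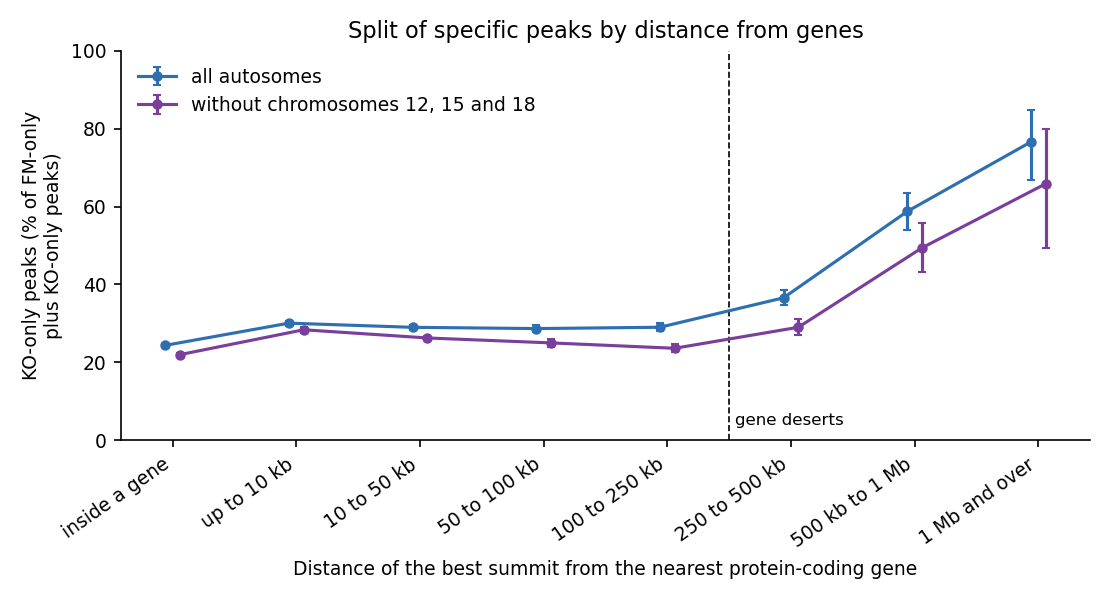
KO-only peaks as a percentage of FM-only plus KO-only peaks (y axis) by distance of the best summit from the nearest protein-coding gene (x axis), for all autosomes (blue) and without chromosomes 12, 15 and 18 (purple). Bars are exact binomial 95% intervals for counting. The share stays under 31% up to 250 kb and reaches 76.6% at 1 Mb and over, or 65.9% without the 3 chromosomes.

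Merging both lists gave 4273 desert regions of 238308 autosomal regions. Of these 1223 (28.6%) held peaks of both lists, against 40.6% of other regions. The regions stood further apart than elsewhere. The nearest neighbouring region lay at a median of 2.18 kb from a desert region and 1.01 kb from others, and 63.4% of desert regions had a neighbour within 5 kb, against 87.9%. KO-only desert regions were the most isolated, with a median of 3.98 kb, followed by FM-only regions at 2.16 kb and shared regions at 1.27 kb. Outside deserts these medians differed less, at 1.08, 1.09 and 0.894 kb.

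Non-coding genes covered a part of the desert peaks. Summits lay inside an lncRNA gene for 676 FM desert peaks (21.9%, interval 20.5 to 23.4) and 485 KO desert peaks (19.2%, interval 17.7 to 20.8). Intergenic peaks nearer to protein-coding genes lay there in 18.2% of FM and 17.0% of KO cases. Within the KO list 22.9% of shared and 15.6% of KO-only desert peaks lay inside an lncRNA gene. A hairpin of a microRNA was overlapped by desert peaks at Mir7094-2 alone, inside the immunoglobulin heavy chain locus, with fold 2.30 in FM and 2.38 in KO.

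Chromosomes contributed unequally. Chromosome 12 held 569 FM (18.5%) and 669 KO (26.5%) of the desert peaks, at 34.0 regions per Mb of desert, where the median autosome had 9.35. Chromosome 19 had the lowest density, with 3.51 per Mb. KO desert peaks outnumbered FM desert peaks on 5 chromosomes, 10, 12, 15, 17 and 18, with ratios of 1.15, 1.18, 2.13, 1.54 and 1.20. On the same 5 chromosomes KO-only desert peaks were more numerous than FM-only ones, whereas no autosome showed this among other peaks. On chromosome 15 the deserts had 34 FM-only and 121 KO-only peaks, or 78.1% KO-only against 49.4% of other specific peaks there. On chromosome 17 the shares were 66.3% and 30.0%. Over the 19 autosomes the KO-only share was higher in deserts than in the rest of the chromosome on 16, with chromosomes 4, 5 and 7 as exceptions. The KO shared percentage was lower in deserts on 19 of 19, and the FM one on 17 of 19. Chromosomes 12, 15 and 18 together held 26.9% of FM and 41.8% of KO desert peaks, against 14.1% and 18.2% of other peaks. The part of chromosome-wide differences between the cell lines was not tested.

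**Figure D3:**
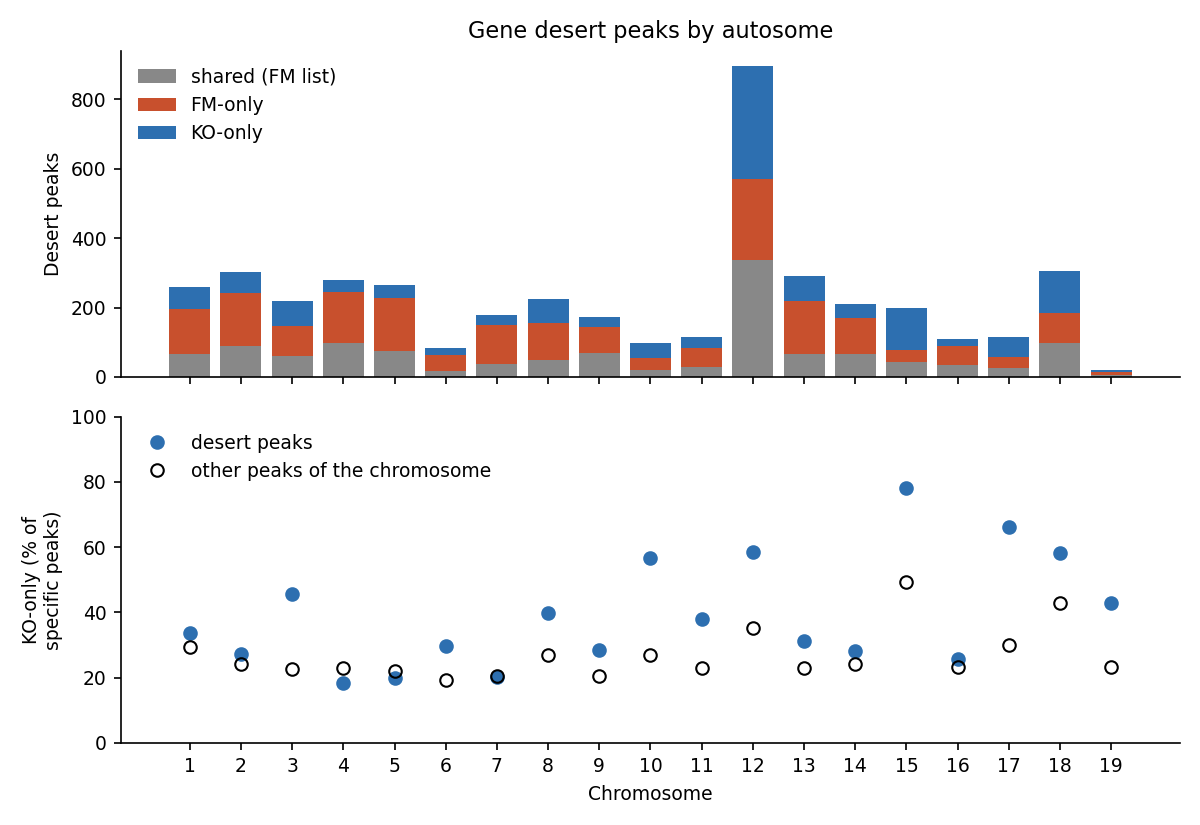
Top, desert peaks (y axis, number) on each autosome (x axis), stacked as shared peaks of the FM list (grey), FM-only (red) and KO-only (blue). Bottom, KO-only peaks as a percentage of specific peaks in deserts (filled) and in the rest of the chromosome (open). Chromosome 12 has the tallest bar, and the filled point lies above the open point on 16 of 19 chromosomes.

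Between neighbouring protein-coding genes 585 deserts had sequence at least 250 kb from both, 392.8 Mb in all, called inner sequence below. Regions were found in 401 of them and not in 184, and 84 regions lay in deserts at chromosome ends. A few deserts held much of the total, with 23.1% of desert regions in the top 10 and 53.5% in the top 50. Density over all deserts was 10.7 regions per Mb of inner sequence. It was highest in small deserts. Deserts with under 250 kb of inner sequence had 43.9 regions per Mb and a KO-only share of 27.4% of specific regions. Those with 2 Mb or more had 3.55 per Mb and 73.2% (1.44 per Mb and 59.1% without chromosomes 12, 15 and 18). Among 384 deserts with a specific region, FM-only regions were in the majority in 198, KO-only regions in 160, and 26 were even.

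The densest desert with at least 500 kb of inner sequence lay on chromosome 18 between Sall3, a spalt zinc finger transcription factor gene, and Galr1, a galanin receptor gene, with 103 regions per Mb. It held 31 shared, 35 FM-only and 27 KO-only regions. Its strongest shared KO peak (chr18:81698936-81699558) had a fold of 4.79, and the FM peak there 3.28. On the same chromosome the desert between Zfp516 and Tshz1, a teashirt zinc finger gene, had 96.8 per Mb, with 16 shared, 18 FM-only and 15 KO-only regions. Its strongest shared KO peak had a fold of 4.23, and the FM peak there 2.13. Both deserts were thus close to even between the lists by number, with 43.5% and 45.5% of specific regions KO-only. Outside deserts 26.4% of specific peaks were KO-only. On chromosome 18 the KO-only share was 58.3% in deserts and 42.9% elsewhere.

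The desert between Adam6a and Zfp386 on chromosome 12 was second by density (99.4 per Mb) and first by number, with 199 regions. It is the variable part of the immunoglobulin heavy chain locus (Igh), which holds 184 annotated antigen receptor segments, 183 of them with an Igh symbol, that the gene table does not class as protein-coding. There 92 regions were shared, 20 were FM-only and 87 KO-only, from 117 FM and 183 KO peaks. A leading shared site (chr12:115616755-115618062 in FM) had a fold of 4.15 in FM and 3.00 in KO. The highest fold of any peak in this desert was 4.54 in FM and 5.06 in KO. The T cell receptor alpha and delta locus between Gm36448 and Dad1 also met the rule, with 21 regions. Leaving out all deserts that hold antigen receptor segments gave a shared percentage of 40.1% in FM and 50.3% in KO.

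Deserts beside regulators of the early embryo were among the densest. Sox2, which encodes a transcription factor of pluripotent and neural cells, borders a desert toward the flippase gene Atp11b with 49.9 regions per Mb, 8 shared, 10 FM-only and 12 KO-only. Its strongest peaks were shared. The site 572.7 kb from Sox2 (chr3:35224760-35225357) had a fold of 4.64 in FM and 5.59 in KO. The KO peak 752.7 kb from Sox2 had a fold of 5.78, and the strongest FM peak overlapping it 3.64. The highest fold of a specific peak in this desert was 2.40 in FM and 2.48 in KO. Its specific peaks were thus weaker than its leading shared peaks in both lists.

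Id2, an inhibitor of basic helix-loop-helix factors, borders a desert toward the ubiquitin ligase gene Rnf144a with 92.9 regions per Mb, where 19 regions were shared, 36 FM-only and 11 KO-only. A shared site 379.6 kb from Id2 (chr12:25475090-25475857) had folds of 4.32 in FM and 4.76 in KO. Sox11, a transcription factor gene of neural progenitors, borders a desert toward Dcdc2c with 8 shared, 11 FM-only and 7 KO-only regions. Its strongest KO peak (chr12:27932320-27933234) had a fold of 4.87, against 2.44 in FM. Sall1, a second spalt gene, borders a desert toward Tox3 with 2 shared, 27 FM-only and 5 KO-only regions. Fgf9, a fibroblast growth factor gene, borders one toward 1700129C05Rik with 6, 15 and 2 in the same order. In the deserts beside Id2, Sall1 and Fgf9 the FM-only regions were thus in the majority. They made up 76.6%, 84.4% and 88.2% of specific regions there. Outside deserts 73.6% of specific peaks were FM-only.

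The other dense deserts had flanks with other roles. Between Mki67, which encodes the proliferation antigen Ki-67, and the DNA repair gene Mgmt 12 regions were shared, 45 FM-only and 8 KO-only. Between Plekhb2 and Hs6st1, a heparan sulfate sulfotransferase gene, there were 8, 25 and 5. Between the helicase gene Dhx35 and Gm826 there were 11, 17 and 9, and the leading site (chr2:159234742-159235459) had a fold of 3.89 in FM and 5.49 in KO. The desert between Ptger4, a prostaglandin E2 receptor gene, and Dab2, an endocytic adaptor gene, had 3 shared, 0 FM-only and 21 KO-only regions. It was the only one of the 12 densest without an FM-only region.

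**Figure D4:**
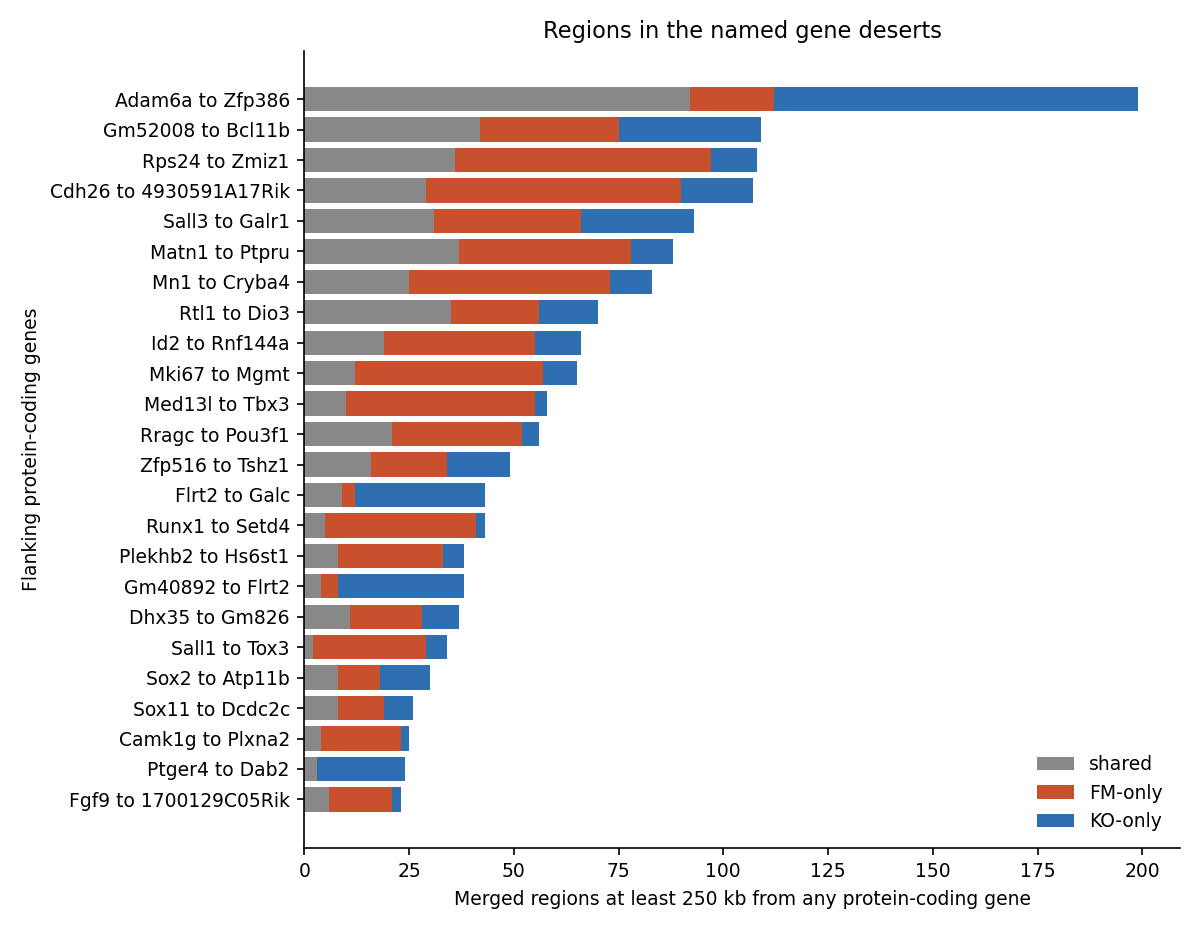
Merged desert regions (x axis, number) in the 24 named deserts (y axis, flanking genes), split into shared (grey), FM-only (red) and KO-only (blue). The Adam6a to Zfp386 desert has 199 regions, and the deserts beside Flrt2 and Dab2 are mostly blue while those beside Runx1 and Tbx3 are mostly red.

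By number of regions, deserts with little inner sequence came up. The desert between Gm52008 and Bcl11b, a transcription factor gene of T lymphocytes, held 109 regions (42 shared, 33 FM-only and 34 KO-only). Its most significant KO row (fold 1.24) carried a recovered background of 8817 fragments, where the KO list's median was 35.2. The recovered pileup of this row was not a whole number, and its values are uncertain. Between Rtl1 and Dio3, which belong to an imprinted cluster on chromosome 12, 35 regions were shared, 21 FM-only and 14 KO-only. The site chr12:109957820-109959368 there had a fold of 3.41 in FM and 3.74 in KO. The remaining deserts of this group had mostly FM-only regions, at 78.2% to 84.7% of specific regions. Outside deserts 73.6% of specific peaks were FM-only. Between Rps24 and the coactivator gene Zmiz1 there were 61 FM-only and 11 KO-only regions, and between Cdh26 and 4930591A17Rik 61 and 17. Matn1 to Ptpru had 41 and 10, and Mn1 to Cryba4 had 48 and 10.

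Among 31 deserts with at least 20 specific regions, 24 had mostly FM-only and 7 mostly KO-only regions. FM-only peaks were also the majority of specific peaks over all deserts (59.0%) and outside deserts (73.6%). The highest FM-only share, 94.7%, was between Runx1, a transcription factor gene of blood formation, and Setd4, with 36 FM-only and 2 KO-only regions. Its strongest site (chr16:93292846-93293486) was shared with nearly equal folds, 4.37 in FM and 4.32 in KO. Between Med13l and Tbx3, a T-box gene of limb and heart, 45 regions were FM-only and 3 KO-only (93.8%). Camk1g to Plxna2, the latter a semaphorin receptor gene, had 19 and 2. Rragc to Pou3f1, which encodes the POU factor Oct6, had 31 and 4. The FM-only regions of these deserts were numerous. Low folds were not particular to them, as FM-only peaks had a median fold of 1.91 over all deserts and 1.86 elsewhere. The most significant FM-only peak had a fold of 2.64 beside Runx1, 2.57 beside Tbx3, 2.30 beside Plxna2 and 2.68 beside Pou3f1.

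The highest KO-only shares, after that of Ptger4 to Dab2, lay on either side of Flrt2, an adhesion gene of the fibronectin leucine-rich transmembrane family on chromosome 12. Between Flrt2 and Galc, a lysosomal galactosylceramidase gene, 3 regions were FM-only and 31 KO-only, and between Gm40892 and Flrt2 4 and 30. On the Galc side 26 of the 31 KO-only peaks lay in the 250 kb of inner sequence nearest to Galc. On the Gm40892 side a shared site (chr12:93576933-93577243) had a fold of 4.23 in FM and 8.81 in KO. The Igh desert followed with 81.3% KO-only, and Sox2 to Atp11b with 54.5%. KO-only peaks made up 41.0% of specific peaks over all deserts and 26.4% outside deserts. On chromosome 12, which holds the Flrt2 and Igh deserts, the shares were 58.4% in deserts and 35.2% elsewhere. On chromosome 15, which holds Ptger4 to Dab2, they were 78.1% and 49.4%.

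**Figure D5:**
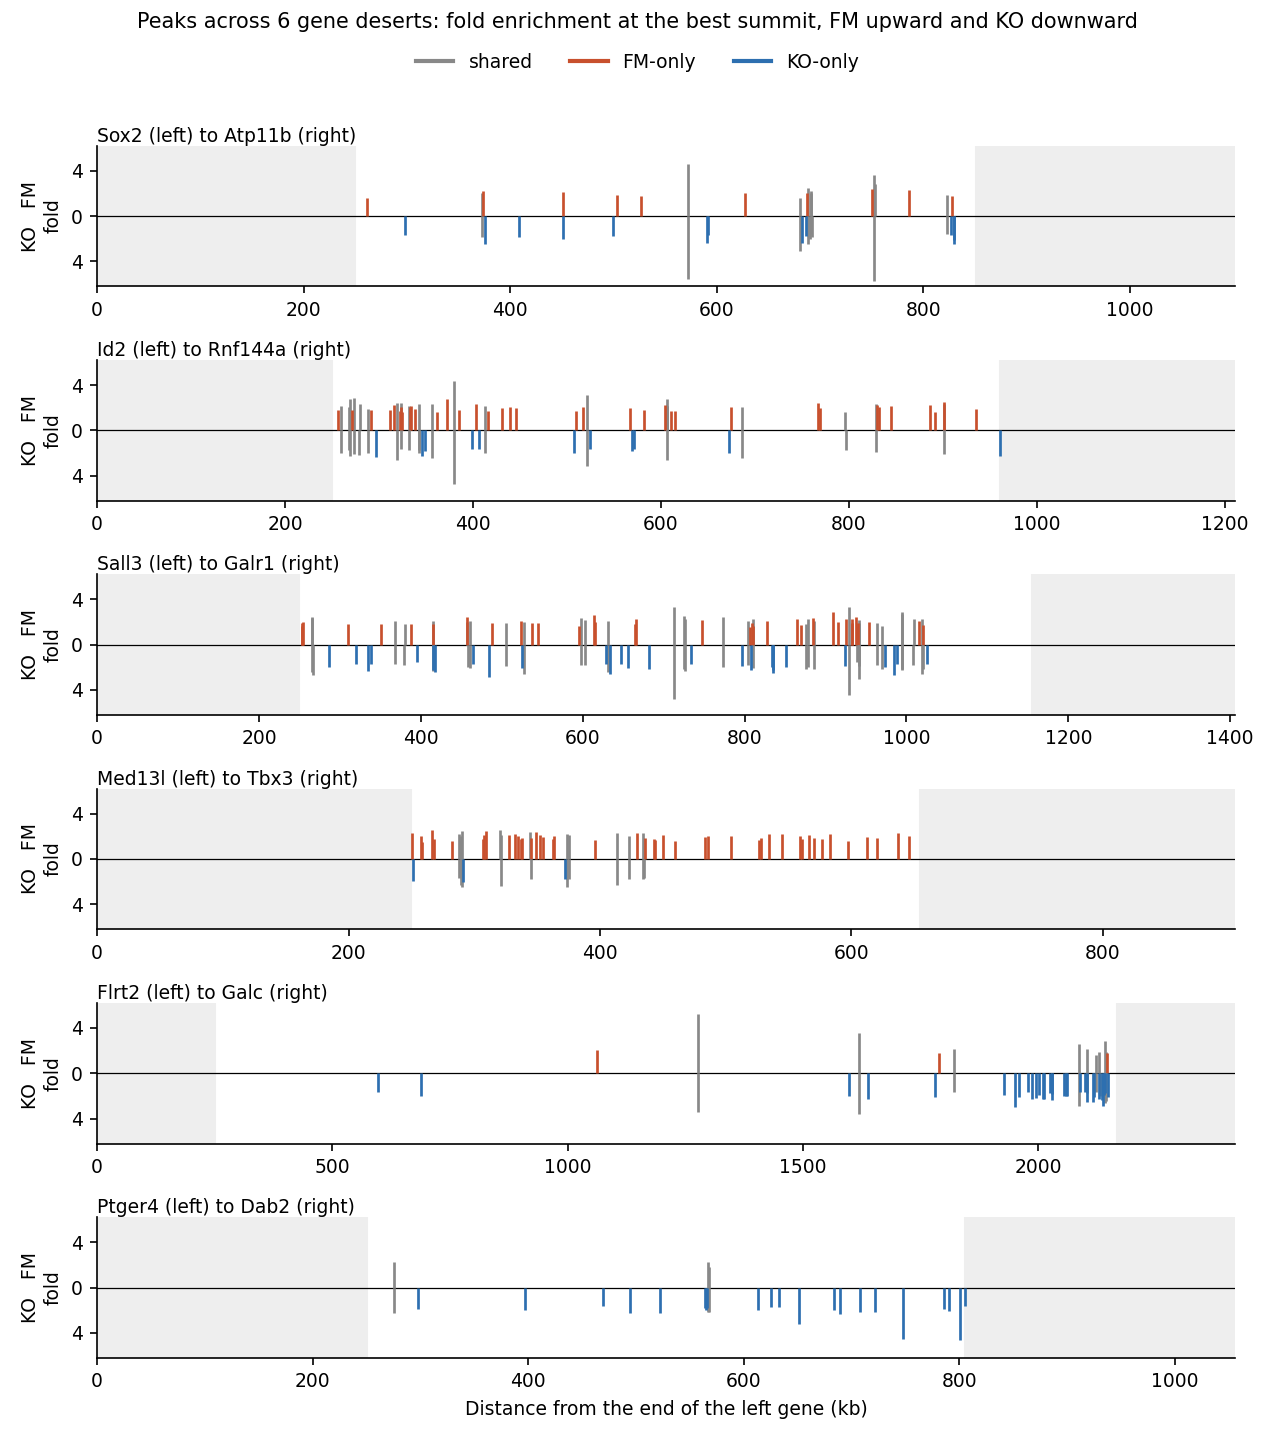
Fold enrichment of desert peaks (y axis, FM upward and KO downward) against distance from the left gene (x axis, kb) in 6 deserts, coloured as shared (grey), FM-only (red) or KO-only (blue). Grey shading marks the 250 kb next to each flanking gene, which the rule leaves out. Tall grey lines in both directions stand at the shared sites of the Sox2 and Id2 deserts, and the Ptger4 to Dab2 desert has 21 blue and no red lines.

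Of 100 listed developmental regulators 97 are autosomal, and 54 of these flank 62 deserts. Those deserts held 860 regions, 240 shared, 418 FM-only and 202 KO-only, at 25.3 per Mb (16.1 without chromosomes 12, 15 and 18). Of 70 listed synaptic and adhesion genes 69 were found in the gene table and 68 are autosomal, and 52 flank 76 deserts with 308 regions at 2.71 per Mb (140 regions over 93.2 Mb of inner sequence without those chromosomes, where all deserts had 8.55 per Mb). There 58 were shared, 69 FM-only and 181 KO-only. The KO-only share of specific regions was 32.6% beside the regulators, 72.4% beside the synaptic genes and 40.6% over all deserts. Deserts of the synaptic list were longer, with a median inner sequence of 1366 kb against 385 kb for the regulators and 371 kb for all. Among deserts with at least 500 kb of inner sequence the shares were 37.9%, 72.7% and 53.2%. Without chromosomes 12, 15 and 18 they were 21.0%, 48.6% and 31.4%, and the synaptic list was close to even, with 55 FM-only and 52 KO-only regions.

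Single deserts of the lists show this. Irx2 to Irx4, between iroquois homeobox genes, had 13 FM-only and 0 KO-only regions, and Shh to Rnf32, beside the hedgehog ligand gene, had 9 and 0. The reverse was seen beside the proto-oncogene Myc (toward Gsdmc), with 3 and 12. Bcl11a to Fancl was near even with 7 and 8. Among cadherin genes, Cdh2 to Dsc3 had 0 FM-only and 19 KO-only regions and Cdh18 to Basp1 had 0 and 13, while Cdh11 to Cdh5 had 10 and 4. Lrfn5 to Fscb, beside a synaptic adhesion gene, had 1 and 16. The 4 deserts named here as mostly KO-only, beside Myc, Cdh2, Cdh18 and Lrfn5, lie on chromosomes 12, 15 or 18.

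The most significant desert peaks of all lay at a few sites with very high local background. The desert peaks whose recovered background was above 5 times the list's median numbered 32 in FM and 36 in KO. Of these 29 and 31 lay in the first bases of the chromosome 9 list, before Alkbh8, and 3 and 3 between Lrrc4c and Iftap on chromosome 2. Some of the highest recovered backgrounds did not pass the check on recovery described with the processing. The site chr2:98666191-98667480 had a −log10 q of 17912 in FM and 55389 in KO, at folds of 9.33 and 8.91. Leaving out peaks of this kind gave 41.1% shared in FM and 49.8% in KO.

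Strong shared peaks outside these sites often had nearly the same borders in both lists. A site 282.1 kb from Pex2 (chr3:5860246-5860926) had a fold of 26.6 in FM and 27.8 in KO, and its KO peak was itself above the background limit. The site between Fbxo15 and Neto1 (chr18:85697826-85698391) had folds of 24.3 and 26.6, and that between Gpd2 and Galnt5 (chr2:57629391-57629825) 26.9 and 28.7. Between Il7 and Stmn2 (chr3:8245149-8246668) the folds were 11.3 and 8.58. Some differed more. Between Myom2 and Csmd1 the folds were 20.9 in FM and 29.1 in KO (chr8:15519706-15520207). Between Igfbp7 and Adgrl3 they were 19.2 and 38.8 (chr5:80500760-80501066), and between Mc2r and Tcf4 16.8 and 26.7 (chr18:68691963-68692391). No list of repeats or problem regions was used here to remove peaks. Whether these folds reflect accessibility alone was not tested.

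The strongest FM-only desert peaks with ordinary background were chr13:86357713-86357934 between Cox7c and Edil3 (fold 5.01) and chr4:80002798-80003063 between Ptprd and Tyrp1 (fold 4.67). The next lay between Mn1 and Cryba4 (chr5:111836482-111837500, fold 3.14). A pair followed between En1, a homeobox gene of the midbrain, and Insig2 (chr1:121050785-121051376 and chr1:121052436-121052867, folds 3.13 and 3.02). On the KO side the strongest lay between Zfp608 and Gramd3 (chr18:55939379-55939719, fold 9.01). It was followed by peaks between Il7 and Stmn2 (chr3:8006149-8007510, fold 5.40) and between Igfbp3 and Tns3 (chr11:7534542-7535236, fold 4.97). A further one lay 556.0 kb from Isl1, a LIM homeobox gene (chr13:115742151-115742430, fold 5.26). The last of the 5 was the peak on the Gm41259 window, 255.1 kb from Dab2 (chr15:6044171-6045220, fold 4.59).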

How the data were processed

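Each group had 3 ATAC-seq libraries and 1 deposited narrowPeak list. The build is mm10 and bcl2fastq, Bowtie2, SAMtools and MACS2 are listed, without versions, per the submitters' processing notes. The sources used here do not give read shifting or how libraries were combined. Each row of the deposited lists holds a fold enrichment (a ratio), −log10 p and −log10 q, a score that is 10 times −log10 q cut to a whole number in nearly all rows, and a summit offset. Ranks and filters were applied within a list. Folds of both lists at overlapping peaks are set side by side without rescaling, as a description. The lowest −log10 q was 1.30 in both lists.

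Rows of 1 interval were reduced to that of lowest p. Distances ran from that summit to 20556 autosomal protein-coding genes of a RefSeq table (GRCm38.p6), after leaving out 105 genes placed before 3 Mb, whose removal changed no desert peak. Local background was recovered from fold and p, and pileups were whole within 0.02 for 99.99% of FM and 99.97% of KO peaks. The exceptions included 8 FM and 28 KO desert peaks, among them the leading site between Lrrc4c and Iftap. The highest recovered backgrounds are therefore uncertain. The planned motif search around summits needs the genome, which was not used here, and promoter windows were searched in its place, with none of chromosome 18 considered for printing. The desert peaks and gene lists were chosen with earlier results of these data known. Named deserts were the 12 densest with at least 500 kb of inner sequence, the 8 with most regions, and the 5 of highest FM-only and KO-only share with at least 20 specific regions. Named peaks were the 5 of highest −log10 q per class. Peaks named with and without high-background sites, and deserts of the gene lists named as examples, were chosen after their values were seen. Alternatives covered overlap, distance, significance, equal numbers, rows, chromosomes, non-coding genes, high background and antigen receptor loci. Functions were tested on simulated data. Python 3.11.15, pandas 2.3.3, numpy 2.4.6, scipy 1.17.1 and matplotlib 3.10.9 were used.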

Additional observations from a re-analysis of the deposited data

Results flagged for a closer look

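Peaks on the sex chromosomes lay outside the autosomal counts and are listed because the report makes no other use of them. On chromosome X 12 FM and 13 KO peaks were at least 250 kb from any protein-coding gene, and 9 of each were shared. On chromosome Y 4 KO peaks and 1 FM peak met the distance, and 1 of each was shared.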

How the results depend on the processing

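Of the desert peaks, 12422 FM and 8492 KO were counted with a distance of 100 kb, 417 and 542 with 500 kb, 1550 and 1387 where each list was cut at −log10 q of 5, 549 and 652 with at least 10, 554 and 822 among the 50000 most significant peaks of each list, and 33 and 37 where any gene, non-coding included, bounded a desert. KO desert peaks numbered 1467 without chromosomes 12, 15 and 18. The shared FM percentage was 39.9 with an overlap of 50% of the shorter peak, 37.8 with the summit inside the other peak, 50.6 at 500 kb, 83.1 with −log10 q of at least 10, 58.7 among 50000 peaks, 46.3 counting every row, 35.8 without the 3 chromosomes and 21.2 with any gene as border. The shared KO percentage was 46.3 with the summit rule, 58.3 at 100 kb, 38.4 at 500 kb, 47.4 and 68.7 with −log10 q of at least 5 and 10, 39.2 among 50000 peaks, 54.7 counting every row, 53.3 without the 3 chromosomes and 18.9 with any gene as border. The FM-only share of specific desert peaks was 67.6% at 100 kb, 38.1% at 500 kb, 54.6% and 31.3% with −log10 q of at least 5 and 10, 31.4% among 50000 peaks, 67.9% without the 3 chromosomes and 46.4% with any gene as border, so KO-only peaks were the majority in 4 of these settings. Desert peaks made up 6.07% of FM peaks at 100 kb, 0.204% at 500 kb, 1.32% and 1.12% with −log10 q of at least 5 and 10, 1.11% among 50000 peaks, 1.38% counting every row, 1.28% without the 3 chromosomes, 0.0161% with any gene as border and 1.44% without antigen receptor loci. In KO these were 6.15%, 0.392%, 1.75%, 1.62%, 1.64%, 1.69%, 1.31%, 0.0268% and 1.68%. With inner sequence of at least 250 kb 3 of the 12 densest deserts remained, and 10 remained per Mb of the whole gap, as also where lists were cut at −log10 q of 5. The alternatives on high background and antigen receptor loci were chosen after seeing the data. The cause of these differences was not tested, beyond the fewer peaks that stricter settings count. No paired analysis was possible because each group has 1 list. Leaving out single libraries was not possible either, for the same reason, and depth in reads is unknown.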
